A study of Glycine max with 4 samples.

Results

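The transcripts described here were abundant in leaves of soybean (Glycine max) seedlings given melatonin alone and scarce in each of the other 3 libraries of the experiment. Levels are read counts scaled to transcript length and library depth (RPKM, reads per kilobase per megaread), recomputed from the read counts with the column total of each library as its depth. A transcript was taken when its RPKM + 0.1 in the melatonin library was at least 50 and at least 8 times that of each other library, with more than 3 counts in at least 1 of those 3 libraries; the locus Glyma06g44010 was left out in advance and did not pass the rest of the rule. Of 55787 transcript models, 152 (0.272%) were members, and they belonged to 144 of 46367 loci. The members were thus chosen by their measured levels in all 4 libraries, so the height of the melatonin library over the others is given as a description.

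RNA was sequenced from leaves of seedlings in 4 conditions, with 1 library each. Mt seedlings received 100 µM melatonin, NaCl+Mt seedlings received 1% NaCl together with 100 µM melatonin, NaCl seedlings received 1% NaCl, and H2O seedlings received water. Per the labels all were grown at a constant temperature under long days. Their age is given as 3 weeks in the methods and as 2 weeks in the results of the study. The number of plants behind a library and the length of the treatment are not given in the sources used here. Melatonin came from a stock in ethanol, and no ethanol is named for the NaCl and H2O treatments, so melatonin and its solvent cannot be told apart in Mt:H2O or NaCl+Mt:NaCl. With 1 library per condition no difference has a replicate check within these data, and no test of a difference between conditions was made. For selected genes the study also ran quantitative RT-PCR on separately grown and treated plants, and reported that it matched the sequencing. Those measurements were not used here. Standard errors (SE) and intervals cover the counting of reads only.

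Melatonin is an indoleamine made from tryptophan. In animals it is a hormone of the night, and in plants it is known as an antioxidant and as a compound that affects growth and the response to stress. High NaCl stresses plants both through a lower water potential and through the ions themselves. Whether melatonin under salt brings about what melatonin brings about without salt is the question that NaCl+Mt bears on.

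Column totals were 23479688 counts in Mt, 36945028 in NaCl+Mt, 28868062 in NaCl and 22908979 in H2O. Leaf identity was checked on the study's own loci of photosynthesis (light reaction and Calvin cycle, 28 loci), all with reads in all 4 libraries, whose summed level was 13290 RPKM in Mt, 6676 RPKM in NaCl+Mt, 7873 RPKM in NaCl and 2722 RPKM in H2O. A single Calvin cycle locus gave 6992 RPKM of the sum in Mt. The medians of the 28 loci were 108, 51.0, 43.0 and 30.6 RPKM in the same order of libraries. The study's loci of the cell cycle and DNA replication, genes of dividing cells, summed over 62 loci to 571 RPKM in Mt, 67.8 RPKM in NaCl+Mt, 70.1 RPKM in NaCl and 55.0 RPKM in H2O. All 62 of these were higher in Mt:H2O at a fold of at least 2, and 24 of the 28 photosynthesis loci were higher with 1 lower, where 23.1% of all loci that passed the filter were higher and 13.3% lower. No dividing-cell locus was at 0 counts in Mt, against 4 in NaCl+Mt, 3 in NaCl and 5 in H2O. The study drew both lists up on these same libraries, so they are not independent evidence of a direction. The dividing-cell list was highest in Mt alone, as the members are. The photosynthesis list was also higher in the salt libraries than in water: in NaCl+Mt:H2O 15 of 28 loci were higher and none lower, beside 5.45% and 4.38% of all loci, and in NaCl:H2O 16 of 27 were higher and 4 lower, beside 7.44% and 13.1% of all. The part of either in the levels of the members was not tested. In bulk leaf RNA, fewer cells of a type and less RNA per cell cannot be told apart.

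Abundant transcripts that stood 8-fold above all other libraries were found mainly in Mt. The same rule, turned to each of the other libraries in place of Mt, took 1 transcript in NaCl+Mt, 7 in NaCl and 2 in H2O, against 152 in Mt. The number of transcripts that were abundant (RPKM + 0.1 of at least 50) was similar in the 4 libraries, at 3664 in Mt, 3873 in NaCl+Mt, 3516 in NaCl and 3879 in H2O. The single transcript of NaCl+Mt was Glyma01g34300.1, with 592 RPKM in NaCl+Mt, against 20.3 RPKM in Mt, 20.4 RPKM in NaCl and 59.8 RPKM in H2O. The highest of the NaCl transcripts was Glyma18g53150.1, at 1231 RPKM in NaCl, against 50.2 RPKM in Mt, 92.1 RPKM in NaCl+Mt and 38.7 RPKM in H2O.

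**Figure D1:**
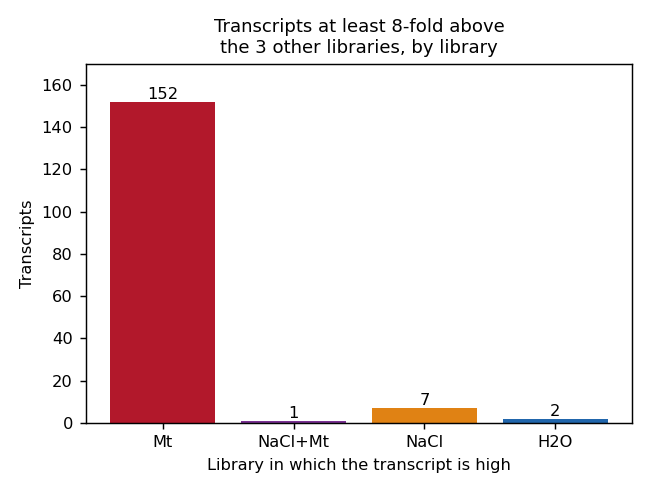
Number of transcripts (vertical axis, from 0) that passed the rule when each library in turn took the place of Mt. The bar of Mt stands at 152, that of NaCl+Mt at 1, that of NaCl at 7 and that of H2O at 2.

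The members carried a larger part of the melatonin library than of any other, which the rule fixed. The shares and their counting intervals are thus a description and test nothing. They held 1.70% of all counts in Mt (95% exact Clopper-Pearson interval 1.69 to 1.70%), 0.0652% in NaCl+Mt (0.0644 to 0.0660%), 0.0431% in NaCl (0.0424 to 0.0439%) and 0.0480% in H2O (0.0471 to 0.0489%). Their median level was 97.3 RPKM in Mt, with a range from 49.9 to 940.3 RPKM. In NaCl+Mt the median was 3.19 RPKM (0 to 33.9), in NaCl 2.28 RPKM (0 to 22.5) and in H2O 2.05 RPKM (0 to 34.4). Levels in Mt did not overlap those of any other library, and for each single member this was fixed by the rule. Reads in at least 1 of the other libraries were a condition of the rule. Of the 152 members, 1 had no count in NaCl+Mt, 11 had none in NaCl and 4 had none in H2O. Of all 55787 transcripts, 48243 had reads in NaCl+Mt, 47148 in NaCl and 47284 in H2O. At least 10 RPKM was reached by 22 members in NaCl+Mt, 11 in NaCl and 10 in H2O, while 37, 55 and 41 stayed under 1 RPKM in these same libraries. The rule bounds these levels from above, and the shares of all transcripts at these levels were not taken.

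**Figure D2:**
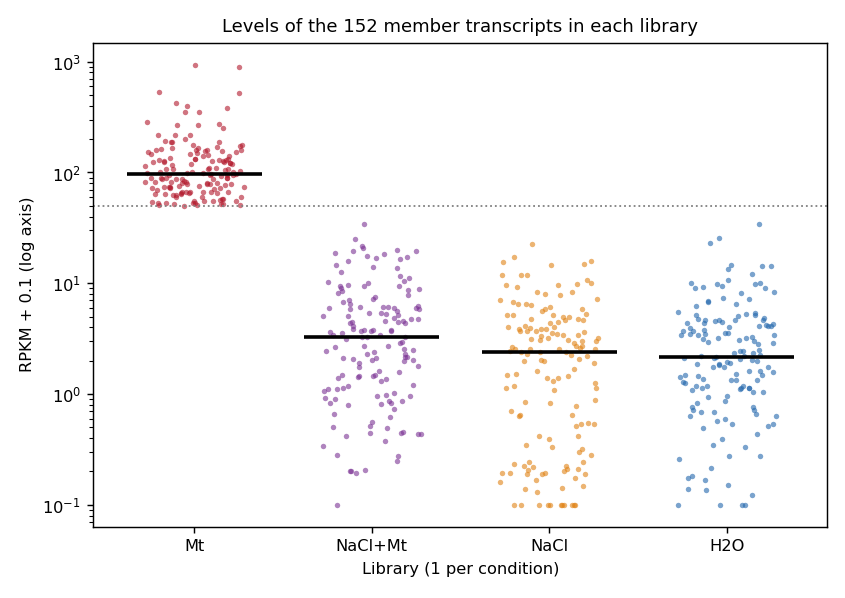
Level of each of the 152 members (points, RPKM + 0.1 on a log axis) in the 4 libraries, with the median as a bar and the minimum of the rule, 50, as a dotted line. All points of Mt lie above those of the other libraries, whose medians are 3.19 RPKM in NaCl+Mt, 2.28 RPKM in NaCl and 2.05 RPKM in H2O; points at the bottom of the axis are members with no count.

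The distance between Mt and the highest of the other 3 libraries varied widely among members. This smallest fold ran from 8.07 to 649, with a median of 21.1. It reached 16 in 97 members, 32 in 52 and 64 in 29. Second to Mt came NaCl+Mt in 78 members, NaCl in 44 and H2O in 30. The lowest of all was NaCl in 77 members, H2O in 44 and NaCl+Mt in 31. Libraries tied at no count were given to the first in the order NaCl+Mt, NaCl, H2O. These orders were not counted over all transcripts and are a description only. The median level of all transcripts was also lowest in NaCl, at 4.36 RPKM, against 4.77 RPKM in NaCl+Mt and 4.89 RPKM in H2O.

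The thresholds cut through a continuum. Just inside the fold minimum lay Glyma07g10820.1 (8.07-fold), Glyma05g00470.1 (8.17-fold) and Glyma17g05230.1 (8.61-fold). Just outside lay Glyma15g42590.3 (7.995-fold), Glyma10g35870.1 (7.87-fold) and Glyma10g34460.1 (7.78-fold). The last of these had 1771 RPKM in Mt, 227 RPKM in NaCl+Mt, 21.8 RPKM in NaCl and 214 RPKM in H2O, a higher level in Mt than any member. Inside the abundance minimum the lowest levels in Mt were those of Glyma06g42110.1 (49.9 RPKM), Glyma07g10820.1 (50.3 RPKM) and Glyma20g34660.1 (51.1 RPKM), and outside it those of Glyma09g40420.1 (49.4 RPKM), Glyma12g16340.1 (49.3 RPKM) and Glyma03g23390.1 (49.3 RPKM) came next. Another 5 transcripts met both minima but had 3 counts or fewer in each of the other libraries. The highest of them were Glyma03g32830.1, with 2140 counts in Mt, 2 in NaCl+Mt and none in NaCl or H2O, and Glyma15g38140.1, with 1391 counts in Mt, 2 in NaCl+Mt, 1 in NaCl and 3 in H2O.

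In Mt, 4 transcripts reached 500 RPKM, 17 reached 200 RPKM and 73 reached 100 RPKM, and the 10 members with the most counts held 22.8% of the members' counts. The locus names are those of the deposited table, in which the number after Glyma is the chromosome; no product name could be attached to them here, so most members are described by their levels only.

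The highest member was Glyma10g13450.1, on chromosome 10, with a coding length of 843 bases. It had 18611 counts (940.3 RPKM) in Mt, 42 counts (1.35 RPKM) in NaCl+Mt, none in NaCl and 1 in H2O. Against the floor of 3 counts per library, Mt was at least 7627-fold higher than NaCl, and NaCl+Mt was at least 10.9-fold higher than NaCl. It was thus nearly undetected without melatonin, and on RPKM + 0.1 Mt was 649-fold higher than NaCl+Mt.

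Glyma13g22940.1 was almost as high, with 889 RPKM in Mt, 19.6 RPKM in NaCl+Mt, 1.82 RPKM in NaCl and 14.4 RPKM in H2O. Glyma13g27050.1 had the same order, with 524 RPKM in Mt, 5.88 RPKM in NaCl+Mt, 0.432 RPKM in NaCl and 4.03 RPKM in H2O. In both, NaCl was the lowest library and NaCl+Mt lay within 2-fold of H2O. Glyma08g14550.1 differed in that its other libraries lay within 2-fold of each other, with 528 RPKM in Mt, 14.5 RPKM in NaCl+Mt, 17.3 RPKM in NaCl and 10.03 RPKM in H2O.

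Several further abundant members were lower in NaCl than in H2O. Glyma17g05760.1 had 397 RPKM in Mt, 33.9 RPKM in NaCl+Mt, 5.52 RPKM in NaCl and 25.4 RPKM in H2O. Glyma18g49400.1 had 274 RPKM in Mt, 19.8 RPKM in NaCl+Mt, 2.78 RPKM in NaCl and 12.1 RPKM in H2O. Glyma04g17600.1 had 199 RPKM in Mt, 21.8 RPKM in NaCl+Mt, 2.99 RPKM in NaCl and 9.79 RPKM in H2O. For all 3 the order was Mt, NaCl+Mt, H2O and NaCl. Glyma09g37290.1 had this order as well, with 1927 counts in Mt, 198 in NaCl+Mt, 3 in NaCl and 39 in H2O. In Glyma17g11940.1, by contrast, H2O came second, with 380.5 RPKM in Mt, 10.3 RPKM in NaCl+Mt, 5.80 RPKM in NaCl and 34.4 RPKM in H2O.

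Others of the 20 highest loci showed NaCl+Mt above both NaCl and H2O. Glyma08g45580.1 had 354 RPKM in Mt, 20.6 RPKM in NaCl+Mt, 2.28 RPKM in NaCl and 3.07 RPKM in H2O. Glyma05g30380.1 had 421 RPKM in Mt, 19.6 RPKM in NaCl+Mt, 3.88 RPKM in NaCl and 6.80 RPKM in H2O. Glyma15g09530.1 had 194 RPKM in Mt, 3.46 RPKM in NaCl+Mt, 0.543 RPKM in NaCl and 0.722 RPKM in H2O. In these 3 the levels in NaCl and H2O lay within 2-fold of each other and that in NaCl+Mt exceeded H2O by 2.71 (SE 0.22), 1.51 (SE 0.21) and 2.12 (SE 0.35) on the log2 scale in the order given.

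In further members the libraries other than Mt lay within 2-fold of each other. Glyma13g26990.1 had 270.2 RPKM in Mt, 24.8 RPKM in NaCl+Mt, 22.5 RPKM in NaCl and 23.2 RPKM in H2O, from 501 or more counts in each. Glyma09g32120.1 was another, at a low level, with 271 RPKM in Mt, 1.37 RPKM in NaCl+Mt, 1.22 RPKM in NaCl and 1.79 RPKM in H2O. Glyma08g45490.1, with few reads outside Mt, had 348 RPKM in Mt, 0.853 RPKM in NaCl+Mt, 0.977 RPKM in NaCl and 0.434 RPKM in H2O, the last from 6 counts. Glyma14g05650.1 was the one of the 20 in which NaCl was at least 2-fold above both NaCl+Mt and H2O, with 288 RPKM in Mt, 0.820 RPKM in NaCl+Mt, 11.9 RPKM in NaCl and 1.32 RPKM in H2O. The remaining 4 of the 20 lay between 190.3 and 219 RPKM in Mt, with the next library, NaCl+Mt in each, between 4.36 and 18.6 RPKM.

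**Figure D3:**
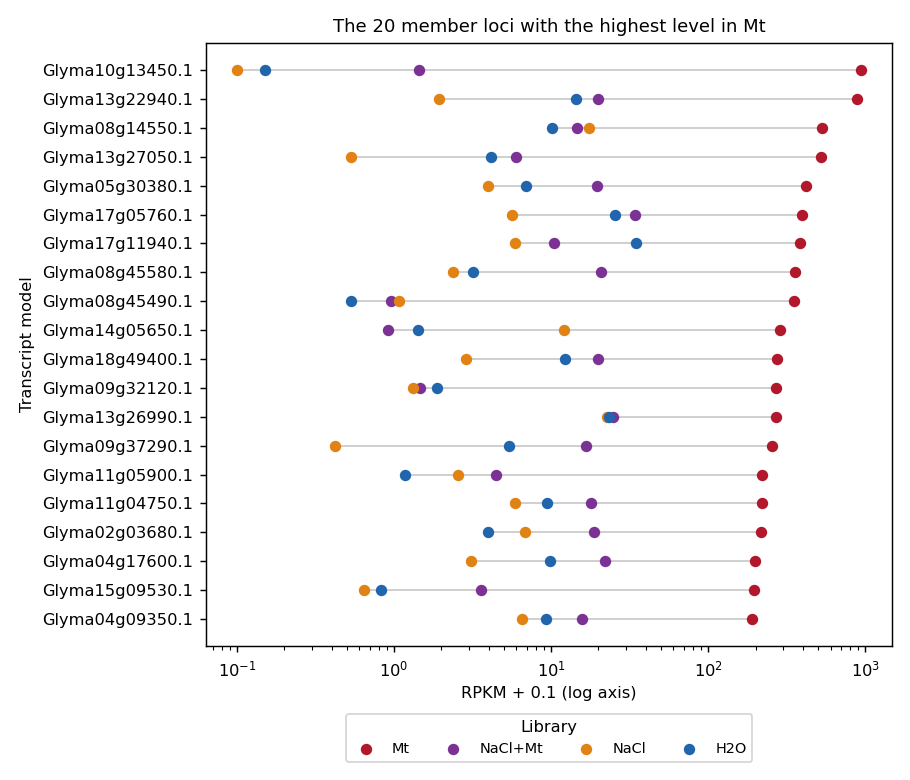
RPKM + 0.1 (log axis) of the 20 member loci with the highest level in Mt, ordered from the top, with 1 point for each of the 4 libraries and a grey line over their range. Mt lies furthest right for every locus, the order of the other points differs between loci, and Glyma14g05650.1 is the one with NaCl well right of both NaCl+Mt and H2O.

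Members split in both directions in the comparison of salt with water, NaCl:H2O. The rule bounds both libraries from above and does not set their ratio. A transcript counted as higher or lower at a fold of at least 2 on RPKM + 0.1 with at least 1 RPKM in 1 of the libraries compared. Of 119 members that passed this filter, 27 (22.7%) were higher in NaCl, where 7.12% of all transcripts passing it were, and 34 (28.6%) were lower, where 12.1% of all were. Their median log2 was -0.15 (interval across members -0.39 to 0.06), beside -0.14 over all transcripts. Which direction held more members turned with the scaling: 30 were higher and 28 lower with median-of-ratios scaling. Calls are more frequent at low counts, so the shares were also taken over members with 20 or more counts in both libraries. There 13 of 78 (16.7%) were higher and 16 (20.5%) lower, beside 5.69% and 9.53% of all transcripts. This filter, here and below, sets a minimum and does not match the counts of members to those of all transcripts. The part of low counts in these shares was therefore not tested.

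Among members with more than 3 counts in both libraries, the lowest in NaCl relative to H2O were Glyma19g43920.1, Glyma13g27050.1, Glyma01g04070.1, Glyma13g22940.1 and Glyma12g32160.1. Their log2 values ran from -3.32 to -2.74. Of these, Glyma13g22940.1 had the most reads, 36 counts in NaCl and 225 in H2O (log2 -2.91, SE 0.26), whereas Glyma19g43920.1 had 4 counts in NaCl and 55 in H2O (log2 -3.32, SE 0.75). Some members with 3 counts or fewer in NaCl were lower still. Among them were Glyma14g14220.1 (1 count in NaCl, 32 in H2O), Glyma18g49570.1 (1 and 37) and Glyma09g37290.1 (3 and 39). At the other end stood Glyma14g05650.1, with 136 counts in NaCl and 12 in H2O (log2 3.08, SE 0.43). Glyma08g02550.1 (log2 2.59, SE 0.46), Glyma09g38320.1 (2.33, SE 0.58) and Glyma02g16150.1 (2.32, SE 0.55) rested on 11 counts or fewer in H2O. The best measured was Glyma04g34160.1, with 313 counts in NaCl and 41 in H2O (log2 2.53, SE 0.24).

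In NaCl 47148 of all 55787 transcripts had reads, and 11 of the 152 members had none. The share of all transcripts with no count in NaCl and 18 or more in H2O was not taken. Loss under salt is therefore not given as a trait of the members. Of the 11 members without a count in NaCl, 6 had 18 or more counts in H2O. The deepest were Glyma14g06990.1, with 6775 counts in Mt, 455 in NaCl+Mt, none in NaCl and 162 in H2O, and its neighbour Glyma14g06980.1, with 3032 counts in Mt, 67 in NaCl+Mt, none in NaCl and 68 in H2O. Against the floor of 3 counts in NaCl, H2O was at least 68.0-fold higher for Glyma14g06990.1 and at least 28.6-fold higher for Glyma14g06980.1. These transcripts were thus present under water and not detectable at this depth under salt alone. The other 4 were Glyma02g03210.1 with 24 counts in H2O, Glyma15g38190.1 with 21, and Glyma06g04740.1 and Glyma17g32100.1 with 18 each. Glyma02g03210.1 had no count in NaCl+Mt either, and Glyma06g04740.1 had 180.

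Melatonin under salt, NaCl+Mt:NaCl, gave more members higher than lower. Of 126 members passing the filter, 50 (39.7%) were higher in NaCl+Mt, beside 10.4% of all transcripts, and 17 (13.5%) were lower, beside 4.5% of all. The median log2 was 0.50 (interval 0.21 to 0.89), beside 0.06 over all transcripts. With 20 or more counts in both libraries, 24 of 90 (26.7%) were higher and 8 (8.89%) lower, beside 7.58% and 3.73% of all. Transcripts that were abundant in Mt, whether members or not, were higher in 9.39% and lower in 3.06% of 3633 cases. This comparison shares the NaCl library with NaCl:H2O, so a low or high count in NaCl moves both in opposite directions.

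Members with more than 3 counts in both libraries were ranked by the log2 of NaCl+Mt over NaCl. The largest belonged to Glyma12g32160.1 (3.77, SE 0.73), Glyma04g01640.1 (3.76, SE 0.37), Glyma10g33790.1 (3.52, SE 0.27), Glyma13g27050.1 (3.49, SE 0.47) and Glyma13g22940.1 (3.36, SE 0.25). Some members with 3 counts or fewer in NaCl, outside this ranking, differed more. Against the floor of 3 counts, Glyma14g06990.1 (455 counts in NaCl+Mt, none in NaCl) was at least 119-fold higher. Glyma09g37290.1 (198 and 3 counts) was at least 51.6-fold higher. Glyma10g33790.1 had 4423 counts in Mt, 495 in NaCl+Mt, 30 in NaCl and 98 in H2O. Glyma04g01640.1 had 1837 counts in Mt, 325 in NaCl+Mt, 16 in NaCl and 26 in H2O. For both, NaCl+Mt exceeded the 2 libraries without melatonin, yet in RPKM it stayed at 9.60 for Glyma10g33790.1 and 8.38 for Glyma04g01640.1, against 135 and 74.5 in Mt.

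The lowest values in NaCl+Mt:NaCl were those of Glyma14g05650.1 (-3.70, SE 0.43), Glyma04g34160.1 (-3.08, SE 0.23), Glyma09g38320.1 (-2.89, SE 0.58), Glyma15g42590.2 (-2.67, SE 0.14) and Glyma08g24380.1 (-2.65, SE 0.47). Glyma04g34160.1 had 96.0 RPKM in Mt, 1.10 RPKM in NaCl+Mt, 10.01 RPKM in NaCl and 1.65 RPKM in H2O. It was thus higher with melatonin in the absence of salt, which the rule fixed, and lower with melatonin in its presence.

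Against water, NaCl+Mt:H2O, more members were higher than lower. Of 127 that passed the filter, 42 (33.1%) were higher in NaCl+Mt, beside 4.97% of all transcripts, and 7 (5.51%) were lower, beside 3.97% of all. The median log2 was 0.53 (interval 0.25 to 0.75), beside -0.07 over all transcripts. With 20 or more counts in both libraries, 25 of 93 (26.9%) were higher and 6 (6.45%) lower, beside 3.43% and 3.18% of all. Among transcripts abundant in Mt as a whole, 10.02% were higher and 1.13% lower. Of the named members with more than 3 counts in both libraries, Glyma04g01640.1 (2.84, SE 0.29) and Glyma08g45580.1 (2.71, SE 0.22) had the highest log2 values, and Glyma17g11940.1 (-1.73, SE 0.12) the lowest.

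The rule set the step to Mt at 8-fold or more and kept NaCl+Mt below it, so its size beside these differences is a description only. The median log2 of the members, which the rule used, was 5.50 in Mt:H2O, 5.72 in Mt:NaCl and 4.97 in Mt:NaCl+Mt. All members were higher in these 3 comparisons by construction, where 20.9%, 22.3% and 19.3% of all transcripts passing the filter were higher in the same order. Abundant transcripts that were 8-fold over H2O and NaCl but not over NaCl+Mt, and so not members, numbered 69.

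**Figure D4:**
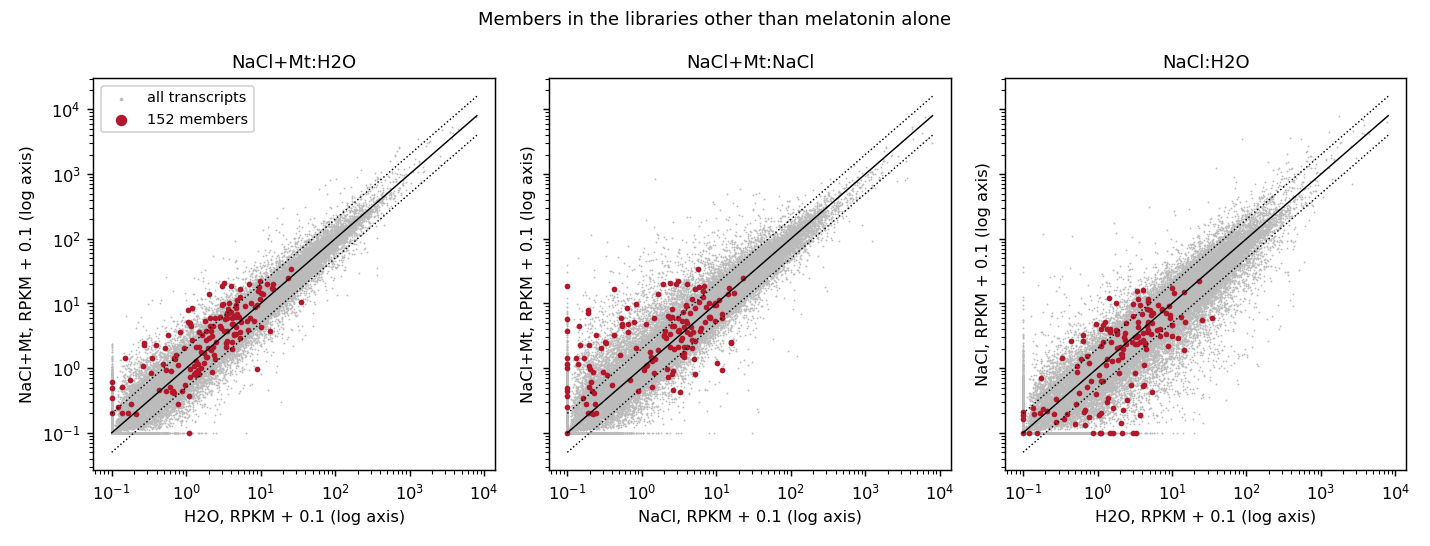
Levels (RPKM + 0.1, log axes) of all transcripts (grey) and of the 152 members (red) in NaCl+Mt against H2O, NaCl+Mt against NaCl and NaCl against H2O, with equality as a solid line and 2-fold differences as dotted lines. Members spread to both sides in NaCl:H2O, with 27 higher and 34 lower, and lie more often above the line in the panels with NaCl+Mt, with 42 and 50 higher against 7 and 17 lower.

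For 3 members the study's table of annotated loci gives a gene name, and that table was drawn up on these libraries. Glyma19g40020.1 is listed there as ATPMEPCRB like, a pectinesterase; pectinesterases remove methyl groups from the pectin of the cell wall. It had 99.0 RPKM in Mt, 2.60 RPKM in NaCl+Mt, 3.23 RPKM in NaCl and 1.75 RPKM in H2O. Of the 10 pectinesterase loci of the table, 9 were higher in Mt:H2O and none lower, where 23.1% of all loci were higher and 13.3% lower, and 5 were at least 8-fold higher in Mt than in each other library, as were 1663 of all 46367 loci. The one with the next highest level in Mt, Glyma07g05150.1, was no member, with 67.0 RPKM in Mt, 13.7 RPKM in NaCl+Mt, 2.35 RPKM in NaCl and 13.3 RPKM in H2O. Glyma06g47200.1 stood out by its low level in NaCl, with 22.2 RPKM in Mt, 15.9 RPKM in NaCl+Mt, 0.961 RPKM in NaCl and 14.7 RPKM in H2O.

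Glyma15g42590 is listed as BGLU, a beta-glucosidase; such enzymes split glucose from glycosides and short glucans. Its transcript Glyma15g42590.2 had 4947 counts (154 RPKM) in Mt, 121 (2.39 RPKM) in NaCl+Mt, 625 (15.8 RPKM) in NaCl and 125 (3.99 RPKM) in H2O. Glyma15g42590.1 was close to it, and Glyma15g42590.3 missed the rule narrowly; the isoforms share sequence, and how reads were split between them is not given in the sources used here. NaCl was higher than H2O (log2 1.96, SE 0.14) and NaCl+Mt lower than NaCl (log2 -2.67, SE 0.14), so the second highest library was salt alone. The nearby BGLU locus Glyma15g42570.1 had the same order of libraries at a lower level, with 24.0 RPKM in Mt, 0.906 RPKM in NaCl+Mt, 3.60 RPKM in NaCl and 1.21 RPKM in H2O. Of the 12 BGLU loci, 8 were higher in Mt:H2O and 3 lower, beside 23.1% and 13.3% of all loci. Glyma14g39230.1 was the most abundant of the lower ones, with 1.86 RPKM in Mt, 6.75 RPKM in NaCl+Mt, 5.66 RPKM in NaCl and 9.49 RPKM in H2O.

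Glyma09g33480.1 is listed as SHMT, serine hydroxymethyltransferase, which interconverts serine and glycine and supplies one-carbon units. It had 2885 counts (79.1 RPKM) in Mt, 6 in NaCl+Mt, 4 in NaCl and none in H2O, and Mt was at least 938-fold higher than H2O against the floor of 3 counts. The table's other SHMT locus, Glyma05g28490.1, was expressed throughout, with 81.2 RPKM in Mt, 31.7 RPKM in NaCl+Mt, 13.2 RPKM in NaCl and 19.0 RPKM in H2O. The pair was thus alike in Mt and far apart elsewhere.

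Genes of cell division and photosynthesis named by the study were not among the members. None of the 40 cell cycle loci reached 50 RPKM in Mt, with 36.0 RPKM as the highest, although in 23 of them Mt stood 8-fold or more above each other library, as it did in 1663 of all 46367 loci. Of the 22 DNA replication loci, 5 did so, and the highest had 25.2 RPKM in Mt. The 28 photosynthesis loci failed in the other way: 19 reached 50 RPKM in Mt and none was 8-fold higher than all other libraries. Among all 211 listed loci 3 were members, 2 of them of starch and sucrose metabolism and 1 of amino acid metabolism.

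Members came from all 20 chromosomes. Their number ran from 2 of 1803 loci on chromosome 16 (0.111%) to 12 of 2252 loci on chromosome 17 (0.533%) and 14 of 3119 on chromosome 13 (0.449%), beside 0.311% of all loci. In 6 loci more than 1 transcript model was a member, 14 models in all, with 4 from Glyma16g04770, whose levels in Mt lay between 67.1 and 92.9 RPKM. The coding lengths of members had a median of 816 bases, from 168 to 2712, beside 750 for all transcripts abundant in Mt and 1026 for all transcripts. Under 500 bases were 27.0% of members, 27.7% of the abundant transcripts and 15.5% of all, so the share among members was close to that among abundant transcripts.

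Some members were near neighbours in the order of locus names. A search made after the values were seen found 7 pairs with at most 9 loci between them. How many such pairs members placed at random would give was not computed, so the number of pairs is a description only. The adjacent pair Glyma14g06980 and Glyma14g06990 on chromosome 14 is the one described above with no count in NaCl. On chromosome 8, Glyma08g45490 and Glyma08g45580 enclosed 6 loci of which none was 2-fold higher in Mt than in all other libraries. One of these, Glyma08g45560.1, had 80.5 RPKM in Mt, 172 RPKM in NaCl+Mt, 18.1 RPKM in NaCl and 49.4 RPKM in H2O. On chromosome 13, Glyma13g26990 and Glyma13g27050 enclosed 3 loci, of which Glyma13g27010.1 had 25.5 RPKM in Mt, 8.68 RPKM in NaCl+Mt, 1.43 RPKM in NaCl and 6.65 RPKM in H2O.

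The stretch from Glyma15g38040 to Glyma15g38190 on chromosome 15 held further loci that were higher in Mt. Of its 9 inner loci, 5 were at least 2-fold higher in Mt than in each other library with at least 1 RPKM in Mt, where 12.1% of all loci were. Glyma15g38040.1 itself had 159 RPKM in Mt, 13.8 RPKM in NaCl+Mt, 14.5 RPKM in NaCl and 10.6 RPKM in H2O, and Glyma15g38190.1 had 90.0 RPKM in Mt, 1.04 RPKM in NaCl+Mt, none in NaCl and 1.36 RPKM in H2O. Between them Glyma15g38080.1 reached 1455 RPKM in Mt, but with 493 RPKM in NaCl+Mt, 34.5 RPKM in NaCl and 78.4 RPKM in H2O it was no member. Glyma15g38140.1 had 208 RPKM in Mt and was kept out by its counts of 3 or fewer elsewhere, and Glyma15g38150.1, with 47.7 RPKM in Mt and 7 counts in NaCl+Mt, fell short of the abundance minimum. Over the 7 pairs together, 8 of 34 enclosed loci met this criterion, and 5 of these 8 lay in this stretch. The methods take reads that map uniquely to a gene for RPKM, and the table does not say whether its counts are restricted to these.

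Coding length picked out a further set, again after the values were seen. Of 77 loci with a coding length of exactly 411 bases, 6 (7.79%) were members, beside 0.311% of all loci. At least 8-fold higher in Mt than in each other library with at least 1 RPKM in Mt were 16 of the 77 (20.8%), beside 3.45% of all loci. The highest was Glyma15g03710.1, with 155 RPKM in Mt, 5.99 RPKM in NaCl+Mt, 7.75 RPKM in NaCl and 4.99 RPKM in H2O. Glyma18g50120.1 had 121 RPKM in Mt, 2.04 RPKM in NaCl+Mt, 3.54 RPKM in NaCl and 1.38 RPKM in H2O. Glyma02g16150.1 had 87.6 RPKM in Mt, 1.98 RPKM in NaCl+Mt, 4.64 RPKM in NaCl and 0.850 RPKM in H2O. All 6 had NaCl as the second highest library, as had 44 of all 152 members. The others of the 6 were Glyma08g26880.1, Glyma12g05910.1 and Glyma08g24380.1, with 82.6, 60.5 and 54.6 RPKM in Mt. NaCl+Mt came close behind NaCl in Glyma15g03710.1 (log2 of NaCl+Mt over NaCl -0.37, SE 0.21) and Glyma08g26880.1 (-0.47, SE 0.23).

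Glyma18g01870.1, of the same length, was flat, with 512 RPKM in Mt, 505 RPKM in NaCl+Mt, 474 RPKM in NaCl and 545 RPKM in H2O. Of the 10 loci at 8-fold that were not members, Glyma05g04440.1 had 752 counts in Mt, 1 in NaCl+Mt and none in NaCl or H2O, and Glyma11g13940.1 fell short of abundance at 45.3 RPKM in Mt, against 1.58 RPKM in NaCl+Mt, 1.60 RPKM in NaCl and 1.06 RPKM in H2O. The other lengths shared by at least 3 member loci gave smaller shares, 3 of 71 loci at 381 bases, 3 of 85 at 435 bases, 4 of 91 at 462 bases and 3 of 91 at 1131 bases. What proteins the loci of 411 bases encode was not determined here.

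**Figure D5:**
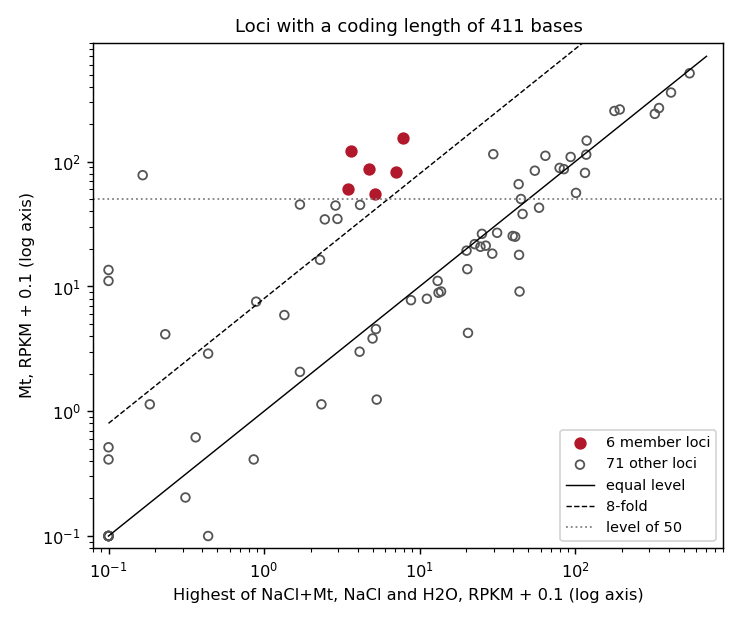
Level in Mt against the highest level of NaCl+Mt, NaCl and H2O (RPKM + 0.1, log axes) for the 77 loci with a coding length of 411 bases, with the 6 members filled and the other 71 open. Lines mark equal levels, an 8-fold difference and the level of 50; 10 of the open points lie above the 8-fold line with at least 1 RPKM in Mt.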

How the data were processed

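Leaf RNA of 4 conditions (Mt, NaCl+Mt, NaCl and H2O, 1 library each) was sequenced on an Illumina instrument. The authors trimmed the reads and mapped them with BWA 0.7.4. The genome build, the counting tool and its use of strand are not given in the sources used here. The deposited table holds, per transcript model, a length in bases, the count of mapped reads per library and an RPKM, which the authors define from the reads mapped uniquely to a gene, those mapped uniquely to the genome and the gene's length; the header calls the count columns mapped counts and does not say whether they hold unique reads alone. Some transcripts with reads are listed at an RPKM of 0 (10 members in NaCl+Mt, 31 in NaCl and 25 in H2O), so RPKM was recomputed from the deposited counts with the column sum as depth, and the deposited RPKM served as an alternative. The lengths of all members are multiples of 3 and are called coding lengths. A floor of 3 counts corresponded, for a transcript of 1 kilobase, to 0.128 RPKM in Mt, 0.0812 in NaCl+Mt, 0.104 in NaCl and 0.131 in H2O.

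Samples were grouped by the treatment in their labels. Fold changes were taken on RPKM + 0.1, with counting SE from the counts of both libraries, and called at a fold of at least 2 with at least 1 RPKM in 1 library. Medians carry 95% order-statistic intervals across transcripts, which are not replicates. Bounds against a library with no count used 3 counts per library. Members and lists were chosen with earlier results of these data known. The lists are the study's annotated loci, with 1 transcript per locus, the one with the highest mean RPKM. Named genes were the 20 loci highest in Mt, the 5 highest and 5 lowest in NaCl:H2O and NaCl+Mt:NaCl among members with more than 3 counts in both libraries, the members in the study's annotation table, and the 3 transcripts on either side of each minimum; others were chosen after their values were seen. None of the locus names matched the reference gene table, so grouping by product, markers of other cell types, promoters and proteins were not analysed here.

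Alternatives were edgeR 4.0.16 TMM (in R 4.3.3) and median-of-ratios scaling, deposited RPKM, pseudocounts of 0.01 and 1, other minima and filters, and 1 transcript per locus. Filters of 20 counts in both libraries, of a counting interval that excludes 0 and of counts under 3 set to 3 were chosen after seeing the data. Computation used Python 3.11.15, pandas 2.3.3 and SciPy 1.17.1.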

Additional observations from a re-analysis of the deposited data

Results flagged for a closer look

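For 7 of the 38 named members, Mt:H2O and NaCl+Mt:NaCl went opposite ways at a fold of at least 2. In each, Mt was higher than H2O, which the rule fixed, and NaCl+Mt was lower than NaCl at a fold of at least 2. Of all members passing the filter, 17 of 126 (13.5%) were lower in NaCl+Mt:NaCl, beside 4.5% of all transcripts. All 7 were also higher in NaCl than in H2O (log2 1.96 to 3.08). A high count in NaCl alone would move NaCl:H2O up and NaCl+Mt:NaCl down. The difference between Mt:H2O and NaCl+Mt:NaCl was not tested, since each library stands alone, and the libraries without salt (Mt and H2O) are separate from those with it.

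The log2 of NaCl+Mt over NaCl was -3.70 for Glyma14g05650.1 (12 counts in NaCl+Mt, 136 in NaCl), beside 7.66 in Mt:H2O. It was -3.08 for Glyma04g34160.1 (44 and 313 counts), beside 5.78 in Mt:H2O, and -2.89 for Glyma09g38320.1 (7 and 51 counts), beside 6.85. Glyma15g42590.2, the BGLU transcript, had -2.67 (121 and 625 counts), beside 5.24 in Mt:H2O. The remaining values were -2.65 for Glyma08g24380.1 (11 and 60 counts), beside 5.43, -2.51 for Glyma08g02550.1 (19 and 104 counts), beside 7.49, and -1.19 for Glyma02g16150.1 (30 and 55 counts), beside 6.53. Glyma08g24380.1 and Glyma02g16150.1 are of the loci with a coding length of 411 bases. All 7 were among the members named for their rank in NaCl:H2O or NaCl+Mt:NaCl, so their place at that end is a product of that choice.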

How the results depend on the processing

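The number of members, 152, became 267 at a fold minimum of 4, 97 at 16, 355 at an abundance minimum of 20 and 73 at 100. It lay between 132 and 157 under the scaling, pseudocount, count-filter, 1-transcript-per-locus and deposited-RPKM alternatives, and the 132 found with deposited RPKM included 130 of the members. At a fold of at least 4, 9 members were higher and 22 lower in NaCl:H2O, 7 were lower in NaCl+Mt:NaCl, and NaCl+Mt:H2O had 16 higher and 1 lower. With 20 or more counts in both libraries, 13 were higher and 16 lower in NaCl:H2O, 24 higher and 8 lower in NaCl+Mt:NaCl, and 25 higher in NaCl+Mt:H2O. A pseudocount of 1 left 8 lower in NaCl+Mt:NaCl and 4 lower in NaCl+Mt:H2O, and gave medians of 5.09 in Mt:H2O and 4.62 in Mt:NaCl+Mt. For a fold of at least 4 and for a pseudocount of 1, the numbers higher in NaCl+Mt:NaCl are not given here. These settings differ from the reported one by asking for more reads or a larger fold, or by shrinking low values. No median or named value past the 2-fold call changed direction under the alternatives run. Of 217 log2 values of named members, 67 moved by more than their counting error with a pseudocount of 1, 19 with deposited RPKM, 7 with TMM and 2 with median-of-ratios scaling. TMM moved the median of all transcripts by 0.13 in NaCl:H2O, -0.17 in Mt:NaCl and -0.12 in Mt:NaCl+Mt, and median-of-ratios scaling moved it by 0.14 in NaCl:H2O and -0.13 in Mt:NaCl. No paired analysis was possible because each condition has 1 library, and no replicate could be left out. Members with 3 counts or fewer numbered 2 in NaCl+Mt, 29 in NaCl and 13 in H2O, and folds against these rest on few reads.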
